A study of Mus musculus with 21 samples.

Results

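The genes described here are 8 genes of placental hormone production, extraembryonic mesoderm and posterior body patterning: Prl3b1, Plac1, Hand1, Hand2, Tbx4, Cdx1, Cdx2 and Cdx4. They were chosen by their measured expression in all 7 groups of the study, so their values are given as a description and no member was tested. The members were found by gene symbol, and 8 of 8 were present both among the 27968 genes of the sorted-cell table and among the 22899 genes of the coculture table. The study differentiated mouse pluripotent stem cells (PSCs) toward hematopoietic stem cell-like cells, and the libraries used here are 21 RNA-seq libraries, 3 replicates in each group.

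Mouse PSCs (mESC, labelled as 129/ola background, while the methods name ES cells from both 129/ola and C57BL/6), kept on feeder fibroblasts, were sorted with an antibody to SSEA-1. PSCs with the same label were induced as embryoid bodies in a 3D self-assembling peptide and the resulting colonies were reseeded with SCF, IL-3 and Flt3 ligand, either on OP9 stromal cells (3D+OP9) or on 0.1% gelatin (3D+0.1% gelatin). On day 5, total cells were collected from both, and lineage-negative Sca-1+ c-kit+ (LSK) cells from 3D+OP9 were divided by CD201, the endothelial protein C receptor, into D5-LSKCD201+ and D5-LSKCD201-. FL-LSKCD201+ cells came from the liver of C57BL/6 embryos at E12.5 and BM-LSKCD201+ cells from the bone marrow of C57BL/6 mice at 6 to 8 weeks of age, so that labelled strain and origin cannot be told apart in comparisons with them. OP9 is a mouse stromal line, so total cells of 3D+OP9 can hold OP9 RNA. The study calls the replicates of all 5 sorted groups biological and speaks of independent experiments for its plots of both D5 groups and of the coculture. The p-values measure the spread between these libraries.

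In the mouse, the placenta forms from trophoblast, which develops out of the outer layer of the blastocyst, and from the allantois and chorion, whose mesoderm is extraembryonic. Trophoblast giant cells secrete hormones of the prolactin family, among them placental lactogens, which act on the prolactin receptor of the mother. The basic helix-loop-helix factors Hand1 and Hand2 and the T-box factor Tbx4 act in extraembryonic and lateral mesoderm, heart and limb, and the caudal-type homeobox factors Cdx1, Cdx2 and Cdx4 act on Hox genes along the posterior axis. The earliest blood and vessel precursors of the embryo also arise in extraembryonic mesoderm.

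All 8 genes are annotated as protein coding in GRCm38. Prl3b1 lies at chr13:27242430-27249679 on the plus strand, Plac1 at chrX:53069995-53240111 on the minus strand, Hand1 at chr11:57828705-57832818 on the minus strand and Hand2 at chr8:57320983-57324633 on the plus strand. Hand2 is overlapped on the opposite strand by Hand2os1, and whether the counting used strand is not given in the sources used here, so reads of the pair may not be separated.

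RefSeq promoter entries (GRCm38.p6) matched 6 of the 8 members with 7 entries. The windows of Prl3b1, Plac1 and Hand2 are shown because these genes were the highest of the members in D5-LSKCD201+. Each line gives the 250 bases before an annotated start site, 5′ to 3′ on the strand of the gene. Capitals mark, on either strand, the letters TATAAA and the letters TATATA, both forms of the TATA box, and the letters GATAA, the core bound by GATA factors. The windows are Prl3b1 at chr13:27242180-27242429 (plus strand), both Plac1 entries at chrX:53114406-53114655 and chrX:53240111-53240360 (minus strand) and Hand2 at chr8:57320733-57320982 (plus strand).
Prl3b1: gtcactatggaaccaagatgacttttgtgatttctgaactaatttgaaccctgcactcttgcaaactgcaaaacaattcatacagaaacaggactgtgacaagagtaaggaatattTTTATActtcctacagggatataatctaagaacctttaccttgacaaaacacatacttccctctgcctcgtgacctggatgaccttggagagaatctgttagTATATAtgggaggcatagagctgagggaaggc
Plac1 first entry: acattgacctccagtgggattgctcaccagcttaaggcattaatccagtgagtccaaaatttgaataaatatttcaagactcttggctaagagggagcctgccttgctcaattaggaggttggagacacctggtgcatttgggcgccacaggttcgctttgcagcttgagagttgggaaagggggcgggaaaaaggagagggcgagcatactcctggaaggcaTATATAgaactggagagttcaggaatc
Plac1 second entry: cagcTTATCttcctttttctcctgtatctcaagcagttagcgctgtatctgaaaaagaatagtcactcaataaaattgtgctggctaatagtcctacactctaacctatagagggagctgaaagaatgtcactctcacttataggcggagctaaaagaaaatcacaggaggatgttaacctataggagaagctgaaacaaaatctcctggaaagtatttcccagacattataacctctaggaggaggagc
Hand2: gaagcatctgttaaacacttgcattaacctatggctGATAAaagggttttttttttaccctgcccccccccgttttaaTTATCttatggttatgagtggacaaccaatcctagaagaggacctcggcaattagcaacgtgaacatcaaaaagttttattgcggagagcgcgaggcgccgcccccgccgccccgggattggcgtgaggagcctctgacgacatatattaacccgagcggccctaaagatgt

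In the Prl3b1 window, TATATA began 32 bases before the start site and TATAAA, on the opposite strand, 134 bases before it. In the first Plac1 window, TATATA began 27 bases before the start site. The second Plac1 window held GATAA on the opposite strand 246 bases before its start site, and the Hand2 window held GATAA 214 bases and, on the opposite strand, 172 bases before its start site. Of 32851 promoter windows of the same length, 5.25% held TATATA, 12.4% TATAAA and 22.6% GATAA. The letters CANNTG, the E-box bound by basic helix-loop-helix factors, were also searched on both strands and were in 66.2% of all windows, in the first Plac1 window and in that of Hand2. These matches are a description of the letters and were not tested for any link to expression.

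The members did not share a single pattern. Prl3b1, Plac1 and Hand2 were highest in D5-LSKCD201+, Hand1, Cdx1 and Cdx2 were highest among the sorted cells in D5-LSKCD201-, and Tbx4 and Cdx4 stayed below 1.2 FPKM in every sorted-cell library. FPKM are fragment counts scaled by library size and transcript length, so levels of different genes may be set side by side. Of the 8 members, 4 were higher and 4 lower in every D5-LSKCD201+ library than in every D5-LSKCD201- library. Of all genes tested between these groups, 73.6% had replicate values that did not overlap, so nothing is read from that count. In RNA from a bulk of cells, fewer cells expressing a gene and less RNA per cell cannot be told apart.

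**Figure D1:**
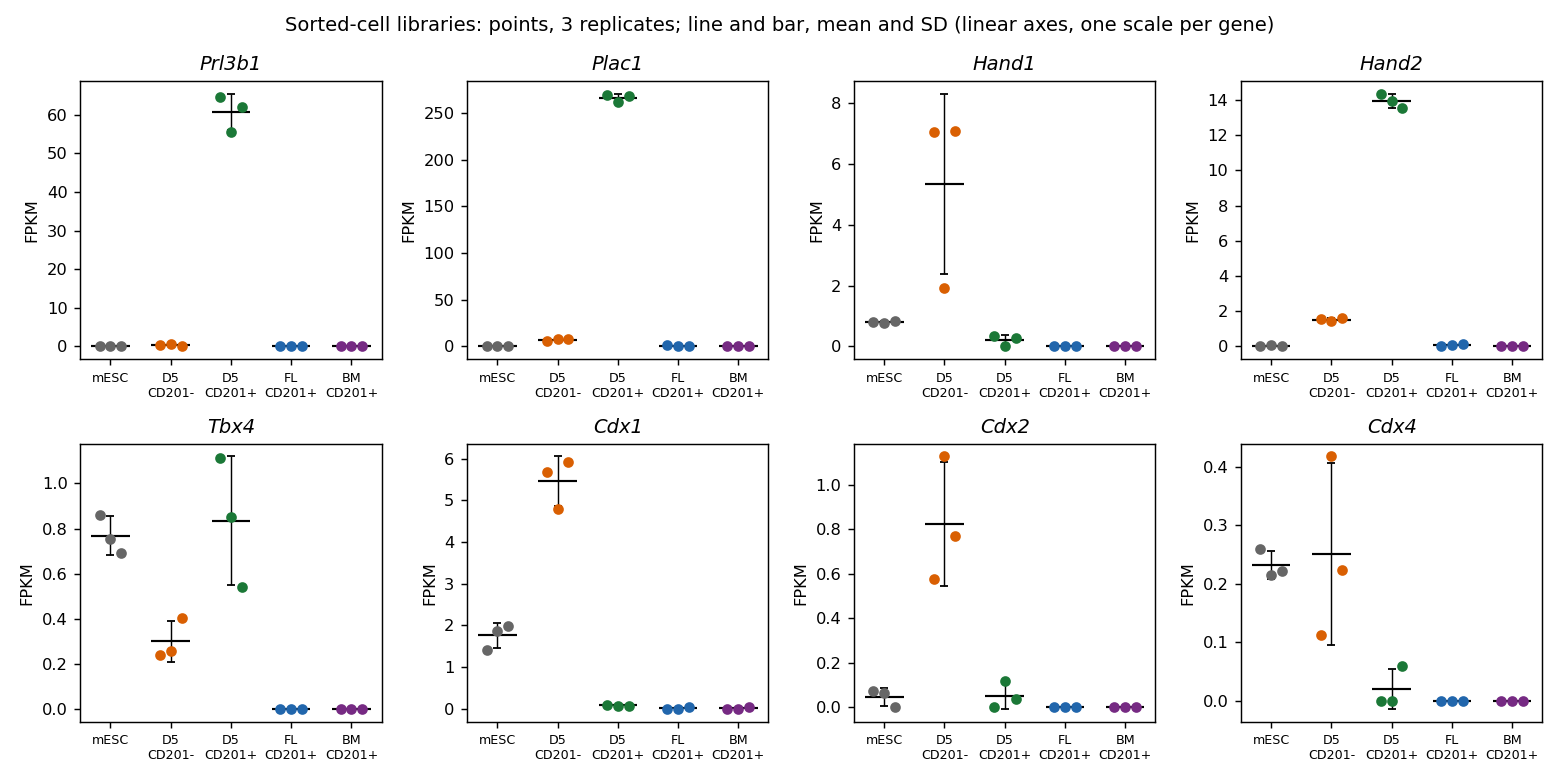
FPKM of the 8 members in the 15 sorted-cell libraries, with 1 point for each of 3 replicates and the mean and SD in black, on a linear axis of its own for each gene. Prl3b1, Plac1 and Hand2 stand apart in D5-LSKCD201+, while Hand1, Cdx1 and Cdx2 have their highest values in D5-LSKCD201-, with 1 of 3 replicates of Hand1 lower than the others.

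Prl3b1 encodes placental lactogen II, a hormone of trophoblast giant cells in later pregnancy. Its level was 64.7, 55.4 and 62.0 FPKM in the 3 D5-LSKCD201+ libraries (60.7 ± 4.77, SD, n = 3) and 0.235, 0.709 and 0.213 FPKM in D5-LSKCD201- (0.386 ± 0.280, SD, n = 3). The lowest D5-LSKCD201+ library was far above the highest D5-LSKCD201- library, and the ratio of the means was 157, or 271 without D5-LSKCD201- replicate 2. The difference on the log2(FPKM + 1) scale was 5.49 ± 0.17 (SE). In mESC Prl3b1 was listed at 0 in 2 libraries and at 0.0582 FPKM in the third, in FL-LSKCD201+ it reached at most 0.0697 and in BM-LSKCD201+ at most 0.0484 FPKM. These last 3 groups overlapped, so their order is not resolved. In D5-LSKCD201+ 6.41% of all genes had a higher mean than Prl3b1.

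Plac1 encodes a placenta-specific protein of trophoblast and is X-linked. It had the highest level of the members, with 269.6, 262.0 and 268.8 FPKM in D5-LSKCD201+ (266.8 ± 4.16, SD, n = 3), rank 330 of 27968 genes. In D5-LSKCD201- it was 6.13, 7.87 and 7.46 FPKM (7.15 ± 0.909), a ratio of means of 37.3 and a log2 difference of 5.04 ± 0.10 (SE). Unlike Prl3b1, Plac1 was therefore present at several FPKM in all libraries of both D5 groups. In FL-LSKCD201+ it was 1.15, 0.313 and 0.301 FPKM, in mESC 0.379, 0 and 0.280 and in BM-LSKCD201+ 0, 0.267 and 0.203. mESC overlapped both FL-LSKCD201+ and BM-LSKCD201+, while the lowest FL-LSKCD201+ library was above the highest of BM-LSKCD201+. Replicate 1 was the highest of the FL-LSKCD201+ libraries. Plac1 is 48336 bases from Hprt, a gene looked up after its values had been seen. Hprt, a housekeeping enzyme of purine salvage, was at 1.55 ± 0.357, 6.19 ± 1.29 and 5.87 ± 0.219 FPKM (SD, n = 3) in mESC, D5-LSKCD201- and D5-LSKCD201+, against 242.6 ± 6.48 in FL-LSKCD201+ and 164.4 ± 3.34 in BM-LSKCD201+. The level of Hprt thus differed between the libraries labelled 129/ola and those labelled C57BL/6 and not between both D5 groups, whose ranges overlapped. Fam122b and Phf6, also looked up, did differ between both D5 groups without overlap. Fam122b was higher in D5-LSKCD201+ (18.2 ± 0.813 against 7.04 ± 0.418 FPKM), like Plac1, and Phf6 was lower (9.98 ± 0.833 against 11.8 ± 0.0625). The part of these genes in the Plac1 values was not tested.

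Hand2 is a factor of heart, limb and branchial arch mesoderm. Its level was 14.3, 14.0 and 13.5 FPKM in D5-LSKCD201+ (13.9 ± 0.407, SD, n = 3) and 1.53, 1.41 and 1.62 FPKM in D5-LSKCD201- (1.52 ± 0.104). The groups did not overlap, the ratio of the means was 9.16 and the log2 difference was 2.57 ± 0.04 (SE). All mESC and FL-LSKCD201+ libraries were at or below 0.143 FPKM, and Hand2 was listed at 0 in every BM-LSKCD201+ library. D5-LSKCD201+ and D5-LSKCD201- thus held the first and second places in the order for Prl3b1, Plac1 and Hand2 alike.

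Hand1, the paralog of Hand2 that trophoblast giant cells need, had the opposite order. It was 7.03, 1.91 and 7.07 FPKM in D5-LSKCD201- (5.34 ± 2.96, SD, n = 3) and 0.339, 0 and 0.285 FPKM in D5-LSKCD201+ (0.208 ± 0.182). Every D5-LSKCD201- library was above every D5-LSKCD201+ library, the D5-LSKCD201- mean was 25.7 times the D5-LSKCD201+ mean (17.1 to 37.4 times on leaving out any 1 library), and the log2 difference was -2.26 ± 0.51 (SE), the largest SE of the members in this comparison. It was -2.75 without D5-LSKCD201- replicate 2. Replicate 2 also stood below both other D5-LSKCD201- libraries for Pou5f1, a gene of pluripotent cells, at 154.9 FPKM against 248.7 and 258.3. Of the 5 pluripotent markers, Sox2 and Esrrb were also lowest in replicate 2, but Nanog (78.0 FPKM) and Zfp42 (373.9 FPKM) were highest there. All 5 summed to 618 FPKM in replicate 2, against 673 and 672. In mESC Hand1 was 0.813, 0.776 and 0.845 FPKM, between both D5 groups and without overlap with either. It was listed at 0 in every FL-LSKCD201+ and BM-LSKCD201+ library.

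Tbx4 (chr11:85886422-85916097, plus strand), a factor of hindlimb and allantois, was low throughout. It was 1.11, 0.851 and 0.540 FPKM in D5-LSKCD201+ (0.834 ± 0.286, SD, n = 3), 0.860, 0.754 and 0.692 in mESC (0.769 ± 0.0848) and 0.241, 0.257 and 0.405 in D5-LSKCD201- (0.301 ± 0.0906). D5-LSKCD201+ and mESC overlapped, and D5-LSKCD201- lay below both. The ratio of the D5-LSKCD201+ mean to the D5-LSKCD201- mean was 2.77, and the log2 difference of D5-LSKCD201+ from D5-LSKCD201- was 0.49 ± 0.14 (SE). Tbx4 was listed at 0 in all FL-LSKCD201+ and BM-LSKCD201+ libraries.

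Of the caudal genes, Cdx1 lies at chr18:61018862-61036199 on the minus strand, Cdx2 at chr5:147300805-147307270 on the minus strand and Cdx4 at chrX:103321398-103330592 on the plus strand. Cdx1 was the highest of them in the sorted cells. It was 5.68, 4.79 and 5.92 FPKM in D5-LSKCD201- (5.47 ± 0.594, SD, n = 3), 1.42, 1.87 and 1.996 in mESC (1.76 ± 0.305) and at most 0.0942 in D5-LSKCD201+ (0.0799 ± 0.0132). These 3 groups did not overlap, the D5-LSKCD201- mean was 68.4 times the D5-LSKCD201+ mean, and the log2 difference of D5-LSKCD201+ from D5-LSKCD201- was -2.58 ± 0.08 (SE). Cdx2, which is needed to form the trophectoderm, was 0.578, 1.13 and 0.771 FPKM in D5-LSKCD201- and at or below 0.118 in every D5-LSKCD201+ and mESC library, with a log2 difference of -0.79 ± 0.13 (SE) between both D5 groups. The D5-LSKCD201- mean of Cdx2 was 16.1 times that of D5-LSKCD201+, a ratio to values near 0 that was 46.9 without D5-LSKCD201+ replicate 2 and 10.8 without its replicate 1. D5-LSKCD201+ and mESC overlapped for Cdx2. Cdx4, a caudal gene used in embryonic blood formation, was 0.112, 0.418 and 0.224 FPKM in D5-LSKCD201-, overlapping mESC at 0.259, 0.215 and 0.222, and in D5-LSKCD201+ it was listed at 0 in 2 libraries and at 0.0598 in the third. Cdx2 and Cdx4 were listed at 0 in all FL-LSKCD201+ and BM-LSKCD201+ libraries, and Cdx1 reached at most 0.0315 FPKM there.

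Against mESC, 3 members were higher, 3 lower and 2 overlapping in D5-LSKCD201+, beside 86.1% of all tested genes that did not overlap. In D5-LSKCD201- 6 members were higher than in mESC, 1 was lower and 1 overlapped, beside 64.4% of all tested genes. The 1 lower member was Tbx4, and the overlapping one was Cdx4. Against FL-LSKCD201+, 5 members were higher in D5-LSKCD201+ and 3 overlapped, beside 76.6% of all tested genes. The 5 were Prl3b1, Plac1, Hand2, Tbx4 and Cdx1, although Cdx1 was below 0.1 FPKM in both groups. The filter of the tests below, an average of 0.5 FPKM or more across the groups compared, was passed by 6 members between both D5 groups, 6 in D5-LSKCD201+ against mESC, 5 in D5-LSKCD201- against mESC and 3 in D5-LSKCD201+ against FL-LSKCD201+. These comparisons share libraries and do not support each other.

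The sorted groups carried the markers of their labels in part. D5-LSKCD201+ had a level of 59.7 ± 2.03 FPKM for Procr, the gene of CD201, against 3.48 ± 0.411 in D5-LSKCD201- (SD, n = 3). Of 7 blood stem and progenitor markers, 5 had a mean of at least 1 FPKM in D5-LSKCD201+. The number was also 5 in D5-LSKCD201- and was 4 in mESC, so this count does not set D5-LSKCD201+ apart. Between both D5 groups 5 of the 7 were higher in D5-LSKCD201+ without overlap and 0 were lower. The 2 with a mean below 1 FPKM in D5-LSKCD201+ were Ptprc, the common leukocyte antigen, at 0.409 ± 0.167 and Hlf, a factor of blood stem cells, at 0.145 ± 0.0392. In FL-LSKCD201+ they were at 43.5 ± 7.54 and 25.6 ± 1.29. The 6 endothelial markers had sums of 1038 to 1067 FPKM in D5-LSKCD201+, against 54.5 to 58.3 in D5-LSKCD201-, and 6 of 6 were higher without overlap. The 5 pluripotent markers summed to between 618 and 673 FPKM in D5-LSKCD201-, between 5.67 and 5.94 in D5-LSKCD201+ and between 1162 and 1196 in mESC. Of 10 cardiomyocyte markers 8 were lower in D5-LSKCD201+, with sums between 5.41 and 6.32 against 57.4 and 86.3 FPKM, and of 15 stromal markers 8 were higher and 2 lower, with sums between 268 and 282 against 86.3 and 124. Mmp2, a matrix metalloproteinase singled out after its values were seen, made up most of that gap, at 148.3 ± 1.81 against 18.6 ± 0.990 FPKM (SD, n = 3), and without it the stromal sums lay between 121 and 133 against 66.7 and 106. The 2 lower stromal markers were Pdgfra (0.676 ± 0.0307 against 2.61 ± 0.433 FPKM) and Col5a1 (2.81 ± 0.257 against 4.34 ± 0.0529), and 5 overlapped. The 6 endothelial markers thus had the direction of Prl3b1, Plac1 and Hand2, as had 8 of 15 stromal and 5 of 7 blood markers. The 5 pluripotent, 8 of 10 cardiomyocyte, 6 of 10 trophoblast and 5 of 6 visceral endoderm markers had that of Hand1 and the caudal genes. Of all tested genes 73.6% did not overlap between both D5 groups, so nothing is read from these counts. The part of the markers in the members' differences was not tested.

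Markers of trophoblast were measured beside the placental genes. Of 10 trophoblast markers, 2 had a mean of at least 1 FPKM in D5-LSKCD201+, namely Gata3 at 14.0 ± 0.448 and Eomes at 1.07 ± 0.258 (SD, n = 3), and 2, Elf5 and Synb, were listed at 0 in all its libraries. In D5-LSKCD201- and in mESC 2 were also listed at 0 throughout, Tpbpa and Synb. Elf5 was at 0.435 ± 0.260 FPKM in D5-LSKCD201-. The largest values in D5-LSKCD201- were Eomes at 36.7 ± 2.65 and Tfap2c at 24.7 ± 2.52 FPKM, and Tfap2c was at 13.2 ± 0.528 in mESC. The list summed to between 14.9 and 16.4 FPKM in D5-LSKCD201+, between 73.5 and 84.7 in D5-LSKCD201- and between 16.9 and 18.2 in mESC, and between both D5 groups 1 marker, Gata3, was higher (14.0 against 2.44 FPKM), 6 were lower and 3 overlapped. Gata3 was also at 8.09 ± 2.22 FPKM in FL-LSKCD201+ and 11.2 ± 0.556 in BM-LSKCD201+, where the list summed to between 9.22 and 13.1 and between 17.1 and 19.1. The part of trophoblast cells in the members' levels was not tested. The 6 visceral endoderm markers had sums of 0.966 to 1.43 FPKM in D5-LSKCD201+, against 18.5 to 27.3 in D5-LSKCD201- and 276 to 439 in FL-LSKCD201+. Afp, made by yolk sac and fetal liver alike, was at 239.9 ± 45.5 FPKM in FL-LSKCD201+ (SD, n = 3) and Apoa1, an apolipoprotein, at 118.6 ± 39.4.

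Other genes of the prolactin family were sparse. Of the 9 others in the sorted-cell table, 3 reached 0.5 FPKM in some library, namely Prl2b1, Prl2c2 and Prl2c3. Prl2b1 was 0.867, 0.880 and 0.750 FPKM in D5-LSKCD201+ and was listed at 0 in all other sorted-cell libraries. Prl2c2, a proliferin of trophoblast giant cells, was 26.0, 2.30 and 25.2 FPKM in D5-LSKCD201-, against 0.819, 0.594 and 0.462 in D5-LSKCD201+, and Prl2c3 was 19.7, 1.03 and 17.1 against 0.414, 0.508 and 0.188 FPKM. Prl3b1 and the proliferins thus had opposite orders, and D5-LSKCD201- replicate 2 was the low library for both proliferins as for Hand1. Prl2c2 (log2 fold change -3.04 ± 0.77, SE, adjusted p = 0.0102) and Prl2c3 (-2.74 ± 0.83, adjusted p = 0.0216) were lower in D5-LSKCD201+ by limma. Prl2c3 averaged 0.370 FPKM in D5-LSKCD201+ and passed the filter of 0.5 FPKM only through D5-LSKCD201-. The Prl2c3 call was lost on leaving out any D5-LSKCD201+ library or D5-LSKCD201- replicate 1 or 3, with an adjusted p of up to 0.0683. Prl2c2 and Prl2c3 are near-identical copies, so how reads were divided between them is uncertain.

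**Figure D2:**
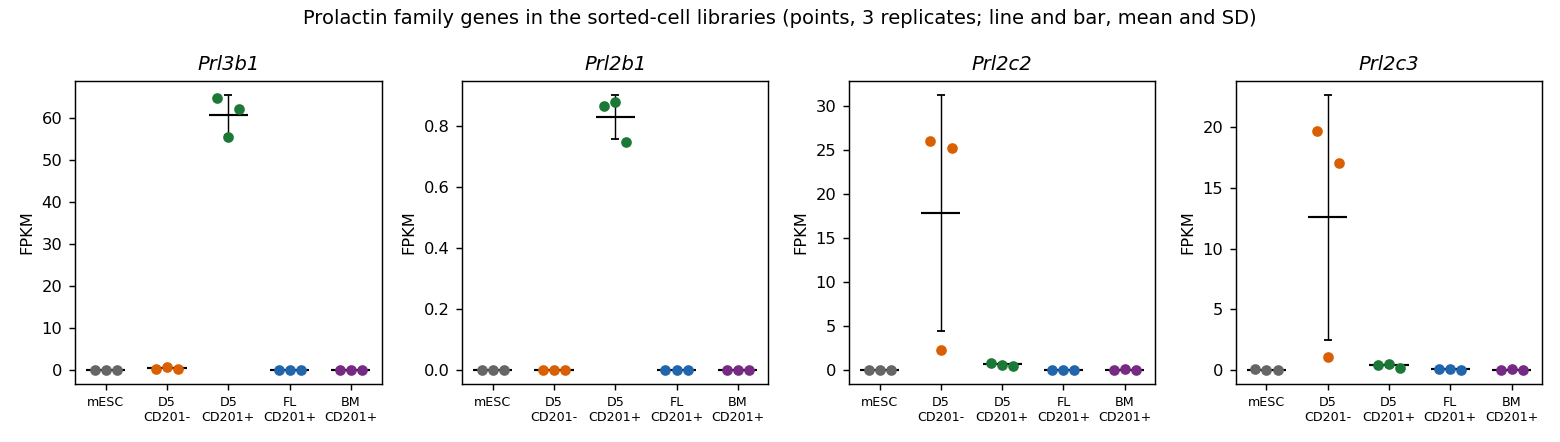
FPKM of Prl3b1 and of the 3 other prolactin family genes that reached 0.5 FPKM in a library, in the 15 sorted-cell libraries, with 1 point for each replicate and the mean and SD in black, each on its own linear axis. Prl3b1 and Prl2b1 have their highest values in D5-LSKCD201+, Prl2b1 at no more than 0.880 FPKM, whereas Prl2c2 and Prl2c3 are high in 2 of 3 D5-LSKCD201- libraries.

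Lists of related genes were then compared between the groups with limma, with Benjamini-Hochberg adjustment over all genes tested. The lists were chosen with earlier results of these data known. Their counts and medians are therefore a description beside the shares of all genes. A gene low in 1 group could also pass the filter only through the other. Of the 123 genes tested in these lists, 7 were in more than 1 list, among them Eomes, Phlda2, Gata4, Gata6 and Isl1, and 13, among them Kdr and Eomes, were also cell type markers, so the counts of the lists are not independent of each other or of the markers. A call needed 2 thresholds, an adjusted p below 0.05 and a log2 fold change of 1 or more in either direction. Between both D5 groups, 10.8% of all tested genes were called higher and 13.9% lower in D5-LSKCD201+, and the median log2 fold change of all of them was -0.12. Of 31 tested extraembryonic mesoderm genes, 5 were called higher and 12 lower (median 0.06). Those highest in fold change were Kdr, the VEGF receptor of blood and vessel precursors (4.12 ± 0.11, SE, 136.9 against 6.95 FPKM), the imprinted zinc finger gene Plagl1 (3.32 ± 0.14), Ets1 (3.29 ± 0.10) and Etv2, the factor that starts the blood and endothelial program (2.67 ± 0.07, 42.7 against 5.88 FPKM). Among the lower ones were Eomes (-4.19 ± 0.12), Lhx1 (-3.97 ± 0.25) and the placental growth regulator Phlda2 (-3.27 ± 0.16). The largest adjusted p among these 7 genes was that of Lhx1, 9.32e-06.

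Of 25 tested trophoblast genes, 8 were called higher and 14 lower in D5-LSKCD201+ (median -2.17). The higher ones with the largest fold changes were the imprinted growth genes Cdkn1c (881.5 against 49.1 FPKM, log2 fold change 4.14 ± 0.05, SE) and Igf2 (1676 against 113.6 FPKM, 3.88 ± 0.11), Ets2 (3.00 ± 0.06) and Gata2 (2.42 ± 0.20). The lower ones with the largest fold changes were the keratins Krt8 (11.6 against 638.9 FPKM, -5.66 ± 0.10) and Krt18 (-5.53 ± 0.11), Sox15 (-4.46 ± 0.09) and Tfap2c, a factor of the trophoblast lineage (-4.36 ± 0.11). The largest adjusted p of these 8 genes was that of Gata2, 3.43e-05. Igf2, Cdkn1c, Ets2 and Gata2 are also used outside trophoblast, in mesoderm, vessels and blood.

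Of 20 tested caudal and Hox genes, 4 were called higher and 13 lower (median -1.54). The 4 higher ones were all Hox genes, targets of caudal factors: Hoxb7 (2.31 ± 0.11, SE), Hoxb5 (2.25 ± 0.09), Hoxa13 (2.12 ± 0.10) and Hoxb8 (1.04 ± 0.12), the last lost on leaving out D5-LSKCD201- replicate 1 or 2 where its fold change was just under the threshold. The lower ones with the largest fold changes were the growth factors Fgf8 (1.55 against 113.7 FPKM, -5.49 ± 0.11) and Fgf4 (-4.48 ± 0.10), Sp5, a target of Wnt signaling (-4.52 ± 0.46), and the primitive streak gene Mixl1 (-4.29 ± 0.14). Of 21 tested cardiac and limb mesoderm genes, 3 were called higher and 8 lower (median -0.19). The higher ones were Mef2c (39.6 against 5.37 FPKM, 2.69 ± 0.14), Foxc2 (2.07 ± 0.19) and Isl1 (1.301 ± 0.10), and the lowest were the muscle genes Myl7 (-4.26 ± 0.11), Actc1 (-4.23 ± 0.30) and Tnnc1 (-2.30 ± 0.12) and the limb growth factor Fgf10 (-3.33 ± 0.11). The largest adjusted p of these 15 genes was that of Hoxb8, 0.000162.

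**Figure D3:**
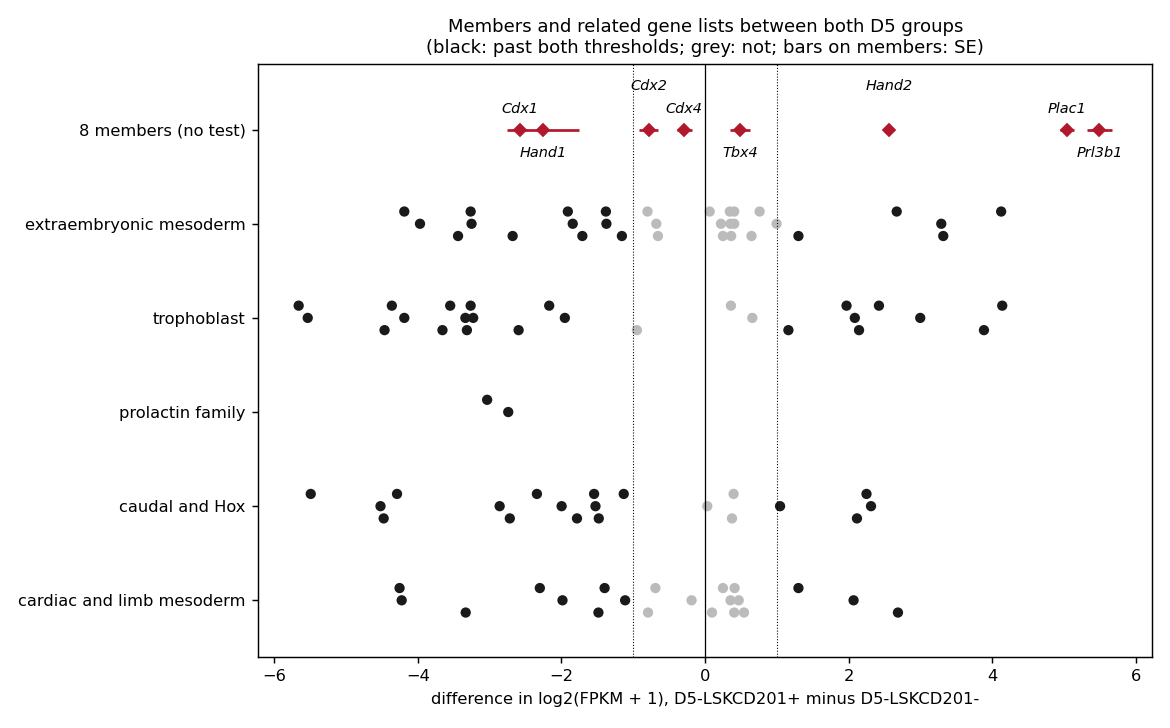
Difference in log2(FPKM + 1) of D5-LSKCD201+ minus D5-LSKCD201- for the 8 members, as diamonds with the SE and without a test, and for each tested gene of 5 related lists, as circles that are black where both thresholds were passed and grey where not. Members lie on both sides of 0, from -2.58 for Cdx1 to 5.49 for Prl3b1, and each list except the prolactin family has called genes on both sides.

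Both D5 groups were also set against mESC, the cells they came from, and D5-LSKCD201+ against FL-LSKCD201+. In D5-LSKCD201+ 19.5% of all tested genes were called higher and 18.1% lower than in mESC (median log2 fold change of all -0.07). Of 26 extraembryonic mesoderm genes 14 were called higher and 4 lower (median 1.33), led by Kdr (6.87 ± 0.06, SE), and of 24 trophoblast genes 10 were called higher and 7 lower (median 0.31), led by Igf2 (8.68 ± 0.08) and with Phlda2 lowest (-5.93 ± 0.11). Of 15 caudal and Hox genes 6 were called higher and 3 lower (median 0.69), led by Cyp26a1, the enzyme that breaks down retinoic acid (119.5 against 0.762 FPKM, 6.10 ± 0.10), and of 16 cardiac and limb mesoderm genes 10 were called higher and 2 lower (median 1.54), led by Mef2c (4.52 ± 0.10). No prolactin family gene other than Prl3b1 passed the filter. The largest adjusted p of the 5 genes named was that of Mef2c, 5.09e-10. Endothelial markers, Kdr among them, had sums of 1038 to 1067 FPKM in D5-LSKCD201+, against 18.3 to 19.2 in mESC. Stromal sums were 268 to 282 against 19.9 to 21.4 FPKM. Trophoblast sums were lower, at 14.9 to 16.4 against 16.9 to 18.2, as were pluripotent sums, at 5.67 to 5.94 against 1162 to 1196. The part of these markers in the list counts was not tested.

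In D5-LSKCD201- 10.9% of all tested genes were called higher and 3.48% lower than in mESC (median of all 0.05). Of 29 extraembryonic mesoderm genes 20 were called higher and 1, Phlda2, lower (median 1.15), led by Lhx1 (4.93 ± 0.25, SE) and Eomes (4.04 ± 0.11). Of 24 trophoblast genes 14 were called higher and 2 lower (median 1.59), led by Krt8 (6.32 ± 0.10). Of 18 caudal and Hox genes 9 were called higher and 1 lower (median 1.15), led by Cyp26a1 (415.9 against 0.762 FPKM, 7.89 ± 0.13) and Fgf8 (6.22 ± 0.13). The lower one, Fgf17 (-1.27 ± 0.24), was not called without D5-LSKCD201- replicate 2. Of 19 cardiac and limb mesoderm genes 14 were called higher and 1 lower (median 1.83), led by Actc1 (4.47 ± 0.31). Both tested prolactin family genes, Prl2c2 and Prl2c3, were called higher by limma, with adjusted p of 0.00461 and 0.0137. They averaged 0 and 0.0255 FPKM in mESC and passed the filter only through D5-LSKCD201-, so nothing is read from that count. The largest adjusted p of the other genes named was that of Fgf17, 0.00327. Cardiomyocyte markers, Actc1 among them, had sums of 57.4 to 86.3 FPKM in D5-LSKCD201-, against 3.08 to 4.32 in mESC. Stromal sums were 86.3 to 124 against 19.9 to 21.4, and trophoblast sums 73.5 to 84.7 against 16.9 to 18.2. Pluripotent sums were lower, at 618 to 673 against 1162 to 1196 FPKM. What these markers contributed to the list counts was not tested.

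Against FL-LSKCD201+, 15.1% of all tested genes were called higher and 19.6% lower in D5-LSKCD201+ (median of all -0.16). Of 23 extraembryonic mesoderm genes 16 were called higher and 2 lower (median 2.32), led by Kdr (6.16 ± 0.08, SE) and Etv2 (5.43 ± 0.07), and of 21 trophoblast genes 11 were called higher and 5 lower (median 1.02), led by Igf2 (1676 against 43.3 FPKM, 5.25 ± 0.12). The 2 lower genes of the first list were the adhesion genes Itga4 and Vcam1, and the Vcam1 call (-1.07 ± 0.10) was lost without FL-LSKCD201+ replicate 1 and with quantile normalization. Of 14 caudal and Hox genes 5 were called higher and 5 lower (median 0.05). Cyp26a1 was the highest (6.24 ± 0.07), and the Hoxa genes of blood stem cells Hoxa9 (1.24 against 73.1 FPKM, -5.04 ± 0.13), Hoxa7 (-4.26 ± 0.12), Hoxa10 (-3.56 ± 0.14) and Hoxa5 (-3.39 ± 0.13) were lower, while the caudal members were near 0 in both groups. Of 14 cardiac and limb mesoderm genes 9 were called higher and 1 lower (median 1.67), and the lower one was Mef2c (-1.26 ± 0.12). The largest adjusted p of these genes was that of Mef2c, 9.70e-05. Cell type markers differed in the same comparison: 6 of 6 endothelial markers, Kdr among them, and 13 of 15 stromal markers were higher in D5-LSKCD201+ without overlap, with endothelial sums of 1038 to 1067 against 133 to 166 FPKM and stromal sums of 268 to 282 against 17.1 to 18.8, while 4 of 6 visceral endoderm markers were lower. Their part in the list counts was not tested, and 76.6% of all tested genes did not overlap in this comparison.

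The genes most like each member were sought among 14452 genes by Pearson's r of log2(FPKM + 1) over the 15 sorted-cell libraries, which share 5 groups of 3, so that r is a description and mainly reflects group means. For Prl3b1 they were Clca2 (r = 0.998), RP24-295B16.1 (0.998) and Disp2 (0.997), and 172 genes had r over 0.95. Clca2, a calcium-activated chloride channel regulator, had 4.15 ± 0.129 FPKM in D5-LSKCD201+, against 0.0627 ± 0.0231 in D5-LSKCD201- (SD, n = 3). For Plac1 the closest genes were Kcne3, Hapln1 and Sparcl1 (each 0.997), with 217 genes over 0.95, and for Hand2 they were Hapln1 (0.999), Gja4, a connexin of arterial endothelium (0.998), and Sparcl1 (0.998), with 227 genes over 0.95. Hapln1 and Sparcl1 were thus near both. For Hand1 they were Calb2 (0.987), Wnt8a, a ligand of the primitive streak (0.981), and Pcdh8 (0.978), with 23 genes over 0.95. For Cdx1 they were the epithelial factors Elf3 (0.995) and Grhl2 (0.994) and Gpat2 (0.994), with 162 genes over 0.95. Among the members themselves r was 0.995 for Plac1 and Hand2, 0.961 for Prl3b1 and Hand2, 0.957 for Prl3b1 and Plac1 and 0.935 for Hand1 and Cdx1, and 0.07 for Hand1 and Hand2.

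The coculture libraries asked what OP9 cells change in day 5 total cells. Plac1 and Hand2 were higher in every 3D+OP9 library than in every 3D+0.1% gelatin library, and the other 6 members overlapped, beside 28.7% of all tested genes without overlap. Plac1 was 5.69, 6.25 and 7.48 FPKM in 3D+OP9 (6.47 ± 0.916, SD, n = 3) and 2.45, 0.96 and 2.53 FPKM in 3D+0.1% gelatin (1.98 ± 0.884), a log2 difference of 1.37 ± 0.30 (SE). Hand2 was 16.4, 21.3 and 16.1 FPKM (17.9 ± 2.93) against 5.41, 1.45 and 4.45 FPKM (3.77 ± 2.07), a log2 difference of 2.09 ± 0.45 (SE). For both, replicate 2 was the lowest of the gelatin libraries, and without it the differences were 1.09 and 1.67. Of the members, 6 passed the filter in this table.

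Hand1 was the most abundant member in total cells. It was 100.4, 100.2 and 82.4 FPKM in 3D+OP9 (94.3 ± 10.4, SD, n = 3) and 107.4, 34.9 and 46.6 in 3D+0.1% gelatin (63.0 ± 38.9), where replicate 1 lay above all 3D+OP9 libraries. The log2 difference was 0.74 ± 0.49 (SE) with all libraries, 1.199 without that replicate and 0.40 without gelatin replicate 2. Cdx2 was the highest of the caudal genes here, at 10.1, 8.98 and 11.4 FPKM in 3D+OP9 and 15.2, 7.71 and 6.93 in 3D+0.1% gelatin, a difference of 0.10 ± 0.33 (SE). In the LSK cells sorted from 3D+OP9, Hand1 had not passed 7.07 FPKM and Cdx2 not 1.13 in any library, but the tables were normalized separately and no test was made across them.

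Prl3b1 was 0.22, 0.28 and 0 FPKM in 3D+OP9 and was listed at 0 in every 3D+0.1% gelatin library. Procr, the gene by whose product D5-LSKCD201+ cells were sorted, was at 2.34 ± 1.23 FPKM in 3D+OP9 (SD, n = 3). Tbx4 was 0.42, 0.57 and 5.14 FPKM in 3D+OP9 and 2.05, 0.87 and 0.92 in 3D+0.1% gelatin, and the difference of 0.11 ± 0.72 (SE) turned to -0.57 without 3D+OP9 replicate 3. Cdx1 was 3.22, 3.51 and 0.27 FPKM against 3.23, 3.04 and 1.48, and its difference of -0.27 ± 0.64 (SE) turned to 0.32 without the same library. Cdx4 stayed at or below 0.66 FPKM in both groups. Replicate 3 of 3D+OP9 was also the library in which Prl2c2 and Prl2c3 were high, at 8.27 and 7.67 FPKM against at most 0.82 in the other 5 libraries.

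**Figure D4:**
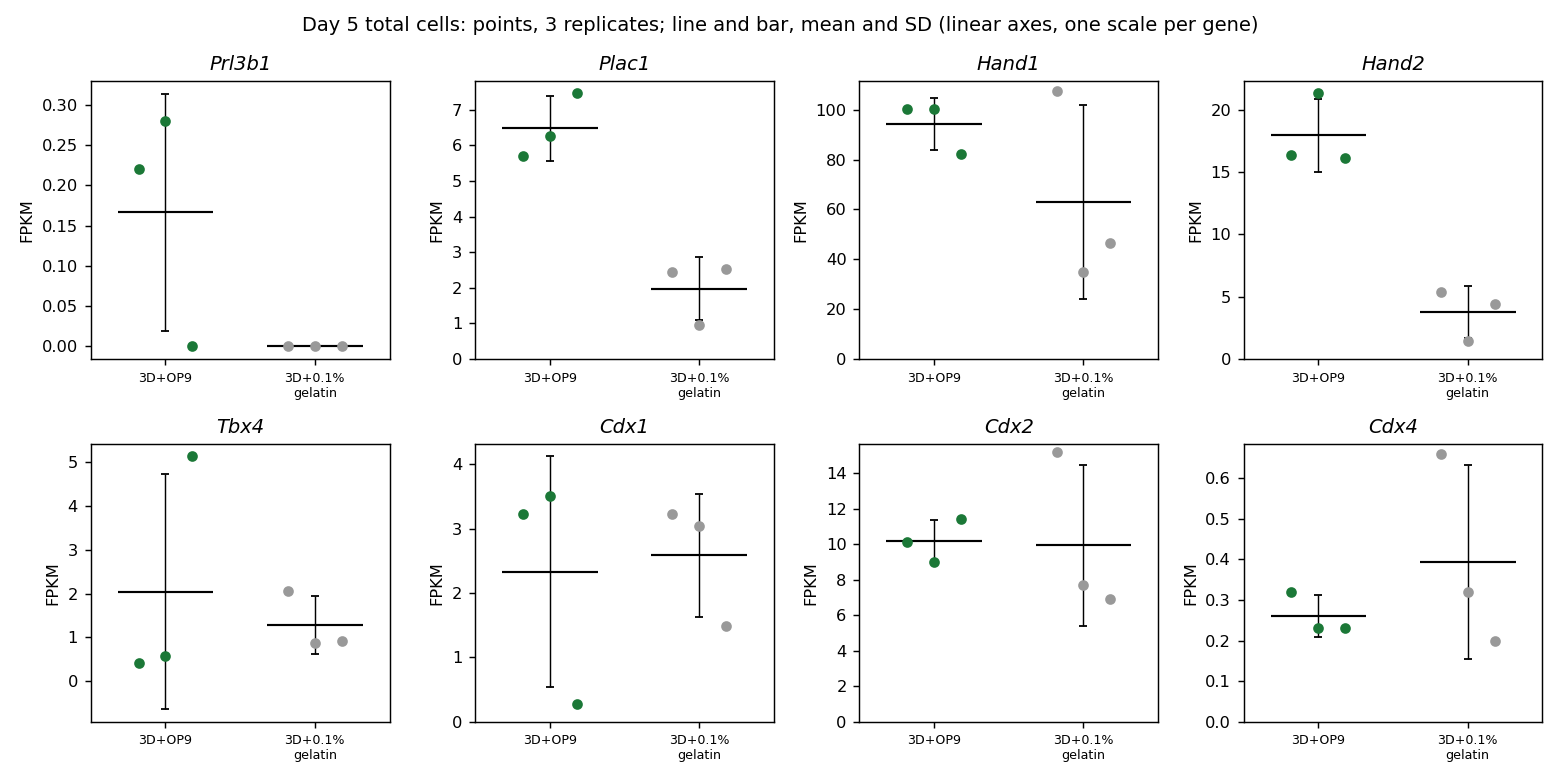
FPKM of the 8 members in day 5 total cells, with 1 point for each of 3 replicates and the mean and SD in black, on a linear axis of its own for each gene. The 2 groups do not overlap for Plac1 and Hand2, and single libraries stand out for Hand1 in gelatin (107.4 FPKM) and for Tbx4 (5.14) and Cdx1 (0.27) in 3D+OP9.

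Of all genes tested in total cells, 2.11% were called higher and 0.509% lower in 3D+OP9 (median of all 0.01). Of 34 extraembryonic mesoderm genes 2 were called higher, Tgfbi, a matrix protein (1.498 ± 0.19, SE, adjusted p = 0.00575), and Kdr (1.28 ± 0.27, adjusted p = 0.0317). Of 28 trophoblast genes Igf2 was called higher (2.08 ± 0.35, adjusted p = 0.0143) and Tfap2a, a factor of trophoblast and surface ectoderm, lower (-1.33 ± 0.16, adjusted p = 0.00449). Of 23 cardiac and limb mesoderm genes 4 were called higher, namely Myl7 (1.61 ± 0.33, adjusted p = 0.0284), Tnni1 (1.31 ± 0.25, adjusted p = 0.0230), Mef2c (1.07 ± 0.15, adjusted p = 0.00754) and Prrx1, a gene of limb and stromal mesenchyme (1.07 ± 0.16, adjusted p = 0.0102). Of 31 caudal and Hox genes 0 were called by limma, with 4 at an unadjusted p under 0.05, and of 2 prolactin family genes 0 were called, with 1 at an unadjusted p under 0.05. The calls of Kdr and Myl7 were each lost without 3D+OP9 replicate 1 or 2 or gelatin replicate 2 or 3 and with no filter on low values, that of Tnni1 without any 1 of the gelatin libraries, that of Mef2c without 3D+OP9 replicate 2, that of Prrx1 without 3D+OP9 replicate 3 or gelatin replicate 2, both of the latter also with quantile normalization, and that of Igf2 without 3D+OP9 replicate 2 or gelatin replicate 3.

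Markers of other cells moved with the coculture. Of 15 stromal markers 9 were higher in 3D+OP9 without overlap, with sums between 134 and 147 FPKM against 81.7 and 97.8, and 6 of 6 endothelial markers were higher, with sums between 75.6 and 90.1 against 9.45 and 20.2. Of 9 trophoblast markers with values, 1 was higher and 2 were lower, with sums between 35.8 and 70.6 against 68.1 and 95.1 FPKM, the lowest of them in 3D+OP9 replicate 3. Of 7 blood stem and progenitor markers 4 were higher, with sums between 30.2 and 37.4 against 9.55 and 11.8 FPKM. Of 10 cardiomyocyte markers 4 were higher and 1 was lower, while their sums overlapped, at 14.9 to 25.8 FPKM with OP9, against 20.8 to 26.8 without. Of 6 visceral endoderm markers 2 were lower, and gelatin replicate 3 stood apart with a sum of 46.3 against 3.29 to 4.77 FPKM in the other 5 libraries. The 5 pluripotent markers had sums of 502 to 764 FPKM in 3D+OP9, against 830 to 910 without OP9. Of these 5, 2 were lower without overlap, Pou5f1 and Nanog, and 2 were higher, Esrrb at 33.1 ± 11.4 against 2.08 ± 0.0964 FPKM and Zfp42 at 40.1 ± 11.7 against 5.50 ± 1.98 (SD, n = 3). The part of OP9 RNA and of these other cells in the Plac1 and Hand2 differences was not tested.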

How the data were processed

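RNA-seq was used from 21 libraries, 15 of sorted cells and 6 of day 5 total cells. The authors deposited FPKM for each gene and library. The study's methods and processing notes name HISAT2 2.0.5, StringTie 1.3.3 and Cuffdiff 1.3.0 with GRCm38, and the notes also list mm9. The positions of the members in the sorted-cell table were those of the GRCm38 annotation, except for both ends of Prl3b1. The coculture table gave 2 decimals, and 3578 of its 22899 genes were blank. Both tables were normalized separately, so each test stayed within a table. Read counts were not given. From the steps between low FPKM values, the depth of the sorted-cell libraries was 0.851 to 1.34 times that of D5-LSKCD201+ replicate 1, a rough estimate because only 11.2% to 40.5% of the low genes per library shared the commonest ratio. FPKM sums were 483263 to 620332 per library.

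The members and lists were chosen with earlier results of these data known. Values were analysed as log2(FPKM + 1), a pseudocount that understates the change of low genes. Genes averaging 0.5 FPKM or more across both groups were tested with limma 3.58.1 (trend, two-sided) in R 4.3.3, on the pair of groups compared, with Benjamini-Hochberg adjustment over all genes tested. Calls needed an adjusted p below 0.05 and a log2 fold change of 1 or more in either direction. An exact permutation test of 3 against 3 libraries cannot give a two-sided p under 0.1. The fit was tested on simulated data, but the outcome is not reported here and nothing is read from it. Cuffdiff needs reads and was not run. For the members, means with the SD and log2 differences with the SE were computed without a test, and replicates were said to overlap where the ranges of both groups did.

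Named were all members, the 3 genes most like each member that averaged 0.5 FPKM or more in the sorted cells, and from each list and comparison up to 4 genes called in each direction with the largest fold change, of which only some are printed for the comparisons with mESC and FL-LSKCD201+. An item that the rule also named is not reported here. Markers named by symbol, Hprt, Fam122b and Phf6 stand outside that rule and were chosen after their values had been seen. Alternatives were quantile normalization, a pseudocount of 0.1, a filter at 1 FPKM or none, the replicate number as a block, the adjusted p alone, 1 fit over all 5 sorted-cell groups, leaving out each library in turn, and r over 5 group means. Motifs were searched in RefSeq promoter windows of 250 bases with Python 3.11.15, and plots were drawn with matplotlib 3.10.9.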

Additional observations from a re-analysis of the deposited data

How the results depend on the processing

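Of 25 list counts, 18 stayed within 1.5 times of the value given under every alternative run, and 7 did not. The number of caudal and Hox genes called between D5-LSKCD201+ and mESC was 14 with the adjusted p alone instead of 9. Most of the others concern total cells. In 3D+OP9 against 3D+0.1% gelatin, the extraembryonic mesoderm count of 2 was 5 with a pseudocount of 0.1, 1 with no filter and 4 with the adjusted p alone, and ranged from 1 to 5 over the fits that left out a library. The trophoblast count of 2 was 4 with a pseudocount of 0.1 and 5 with the adjusted p alone. The prolactin family count of 0 was 1 with a pseudocount of 0.1. The caudal and Hox count of 0 was 1 with the replicate number as a block and 1 with the adjusted p alone, and ranged from 0 to 1 without a library. The cardiac and limb mesoderm count of 4 was 2 with quantile normalization and ranged from 1 to 7 without a library. Between both D5 groups, the prolactin family count of 2 ranged from 1 to 2 without a library. The cause of these shifts was not tested. Over all genes, 3D+OP9 against 3D+0.1% gelatin gave 339 calls, 531 with a pseudocount of 0.1, 891 with the adjusted p alone and between 209 and 444 without a library.

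Same-numbered libraries did not deviate together in every pair (r from -0.20 to 0.29 over all comparisons), so the numbers were not taken as pairs. In 3D+OP9 against 3D+0.1% gelatin alone r was 0.18, 0.07 and 0.29 for replicates 1, 2 and 3. The highest r with another number was 0.11, 0.17 and -0.11, so whether the coculture libraries were paired by number is not settled. The replicate block gave 379 calls instead of 339 in the coculture table and 3381 instead of 3379 between both D5 groups, and changed no list count other than the one above by over 1.5 times.

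Of 40 member differences, 7 changed sign under some alternative and 1 became 0, and none of these 8 was above 0.27 in size. With a pseudocount of 0.1, the differences between both D5 groups were 7.11 for Prl3b1, 5.21 for Plac1, 3.11 for Hand2, 1.19 for Tbx4, -4.19 for Hand1, -4.95 for Cdx1, -2.65 for Cdx2 and -1.49 for Cdx4. With r over the 5 group means, 0 to 2 of the 3 genes most like a member stayed among its closest 3. FPKM near 0 rest on few reads, so the order of levels below about 0.1 FPKM was not resolved.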
